A study of Mus musculus with 2 samples.

Results

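CD8 T cells that carried RNA of Havcr2, which encodes the inhibitory receptor TIM-3, together with RNA of Pdcd1 (PD-1) or Lag3 were examined among leukocytes of mouse tumours. A cell belonged to the set when it had at least 2 UMIs (unique molecular identifiers, each counting 1 captured RNA molecule) over Cd3d, Cd3e and Cd3g and at least 1 over Cd8a and Cd8b1. It also needed at least 1 Havcr2 UMI, at least 1 UMI of Pdcd1 or Lag3, none of Cd4, Foxp3 and Csf1r, and fewer than 3 UMIs over the proliferation genes Mki67, Top2a, Birc5 and Cenpf. The rule found 440 cells among 22044 barcodes that passed quality filters, out of 25802 barcodes in all. Of these cells, 400 came from the library labelled Ythdf2 cKO (called cKO here) and 40 from the library labelled WT. Because the genes of the rule chose the cells, their levels are given as a description only.

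The cells were sorted for CD45, the surface protein of leukocytes, from digested tumours of C57BL/6 mice, and RNA was read from the 5′ end in droplets. The cKO mice carried a conditional knockout of Ythdf2, and the WT mice are labelled as wild type. Ythdf2 encodes a cytoplasmic protein that binds m6A-modified RNA and promotes its decay, and the series asks about its role in tumour-associated macrophages and tumour immunity. The sources used here name neither the Cre line, the sex, age and number of mice per library, nor the tumour model. There was 1 library per genotype, so no difference between genotypes could be tested, and each one describes these 2 libraries. Brackets hold exact 95% intervals, which cover counting error only.

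T cell exhaustion is the state that CD8 T cells reach under lasting antigen exposure, as in tumours. Such cells keep several inhibitory receptors on their surface, express the transcription factor TOX, and lose the self-renewing, TCF-1-expressing state of their progenitors. TIM-3 marks the later, more differentiated part of this spectrum, whereas progenitor-exhausted cells carry PD-1 and TCF-1 with little TIM-3. TIM-3 is also made by dendritic cells, macrophages and regulatory T cells.

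Markers outside the rule were used to check the name. Levels are in CPM, the UMIs of a gene summed over a cell set and scaled to counts per 1000000 UMIs of that set. Tox RNA, of the factor that establishes the exhausted state, stood at 169.9 CPM (157 to 184) in cKO and 163 CPM (118 to 218) in WT cells, and was found in 237 of 400 cKO and 20 of 40 WT cells. Ctla4, an inhibitory receptor, stood at 199 CPM in cKO and 129 CPM in WT cells. Entpd1, the ectonucleotidase CD39 of terminally exhausted cells, stood at 45.3 CPM in cKO and 37.0 CPM in WT cells. Tigit, another inhibitory receptor, was sparse, at 8.90 CPM in cKO and 11.1 CPM in WT cells. The αβ receptor gene Trac was found in 97.25% of cKO and 100.0% of WT cells. Tcf7, which encodes TCF-1, was low at 21.1 CPM in cKO and 25.9 CPM in WT cells. Cells that met the rule except for having no Havcr2 UMI held Tox at 131.6 CPM in cKO and 132.6 CPM in WT. Ctla4 stood at 187 and 176 CPM in these cells, in WT above its level in the exhausted cells. Entpd1 stood there at 29.5 and 17.35 CPM, Tigit at 6.63 and 7.44 CPM and Tcf7 at 85.3 and 159 CPM. The name Havcr2 exhausted CD8 T cells was kept, although Tigit was close to absent and cells without Havcr2 also held Tox and Ctla4.

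The set held 3595325 UMIs in cKO and 270599 UMIs in WT, with a median of 7798 UMIs per cKO cell and 5634.5 per WT cell. The largest single cell held 1.05% of all UMIs of the cKO set and 7.54% of those of the WT set. Ythdf2 itself was measured at 66.5 CPM (58.3 to 75.5) in cKO and 55.4 CPM (31.0 to 91.4) in WT cells, a ratio of 1.20 (0.713 to 2.18). In the myeloid cells of the same libraries it stood at 383 CPM in cKO and 60.9 CPM in WT, which goes against the label. Where the 5′ reads lie relative to the deleted part was not tested, and the levels do not show the deletion. Every direction between genotypes given here is therefore one between the library labelled cKO and the library labelled WT. Havcr2 lies on chr11:46454935-46481255 (plus strand), Gzmb on chr14:56258838-56262260 (minus strand) and Ythdf2 on chr4:132184912-132212303 (minus strand) in GRCm38. The libraries shared 43 barcodes, 28 of them after filtering and 0 in the exhausted set.

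Droplets that held RNA of another cell bore on several results. The summed level of macrophage, dendritic, B cell, neutrophil and melanocytic markers had a median of 280.3 CPM per cKO cell and 781 CPM per WT cell. Cells with at least 3000 CPM of these markers, called mixed droplets here, were 16 of 400 (4.0%) in cKO and 4 of 40 (10.0%) in WT, and 5 and 3 of them were among the highest Scrublet doublet scores. All 8 macrophage markers were more than 1.5-fold lower in cKO, with a summed level of 89.3 CPM in cKO and 1851 CPM in WT cells. The dendritic markers summed to 1539 CPM in cKO, with up to 35670 CPM in a single cell, and to 1138 CPM in WT. A single WT droplet of 20394 UMIs held 105 of the 191 Apoe UMIs and 49 of the 83 C1qa UMIs of the whole WT set. Values without the mixed droplets, a comparison added after seeing the data, are therefore given beside the results they change.

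Exhausted cells made up a larger share of the CD8 T cells in the library labelled cKO. They were 400 of 1715 gated CD8 T cells, or 23.3% (21.3 to 25.4), in cKO and 40 of 742, or 5.39% (3.88 to 7.27), in WT, a ratio of 4.33 (3.12 to 6.15). Among all filtered barcodes the shares were 4.06% (3.67 to 4.46) in cKO and 0.328% (0.235 to 0.447) in WT, a ratio of 12.4 (8.91 to 17.5). CD8 T cells without any of the 3 receptors were 30.2% (28.0 to 32.4) of the gated cells in cKO and 65.1% (61.5 to 68.5) in WT. Havcr2-negative cells with Pdcd1 or Lag3, which differ from the exhausted set only in that gene, were 27.0% (24.9 to 29.2) in cKO and 16.7% (14.1 to 19.6) in WT. Excluded from the set by the proliferation genes were 147 cKO and 26 WT cells that met its other criteria.

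A deeper library finds a receptor in more cells, so cells were also thinned to 4351 UMIs each before the rule was applied, which left out 1575 cKO and 4920 WT barcodes. The share of exhausted cells was then 274 of 1647 gated CD8 T cells, or 16.6% (14.9 to 18.5), in cKO and 30 of 550, or 5.45% (3.71 to 7.70), in WT. Natural killer cells, which served as background for free RNA, had a Havcr2 UMI in 1.07% of cKO and 2.39% of WT cells at that depth, against 27.0% of cKO and 12.9% of WT gated CD8 T cells. CD4 T cells without Foxp3 had one in 6.62% of 136 cKO and 7.78% of 90 WT cells at that depth. The few B cells deep enough for this comparison showed Havcr2 in 9.30% of 43 cKO and 15.2% of 46 WT cells. The WT share among CD8 T cells was not above that WT value. However, these B cells were chosen after thinning, as were the natural killer and CD4 T cells. Without thinning, 3 of 185 cKO (1.62%) and 6 of 363 WT B cells (1.65%) had a Havcr2 UMI. Their median depths were 3534 and 2332 UMIs. The thinned B cell sets thus included barcodes that were not B cells by all UMIs, so their shares do not measure free RNA alone. Leaving out cells with any UMI of Lyz2, C1qa, Cd79a or Apoe kept 219 cKO but only 7 WT cells of the set.

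**Figure D1:**
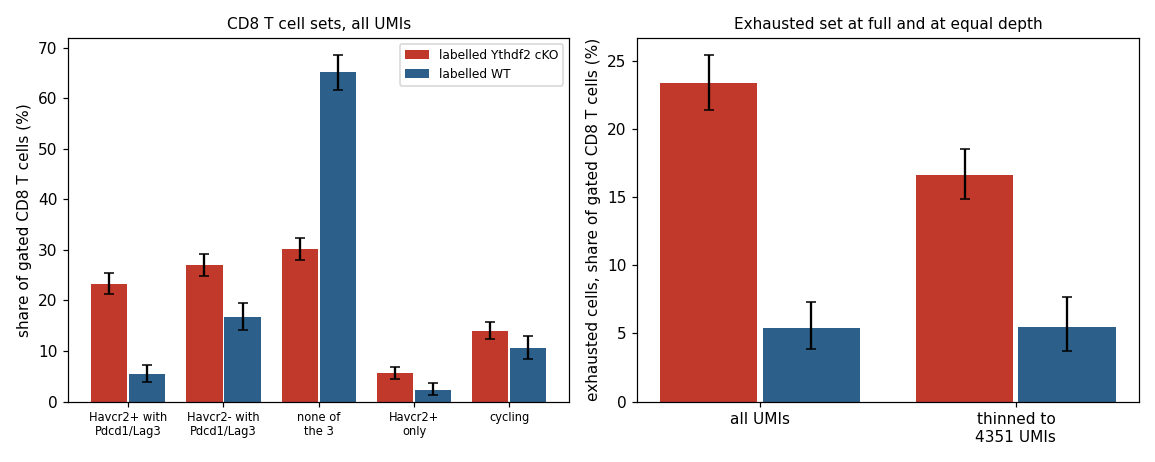
Left, share of gated CD8 T cells (%) in 5 sets defined by Havcr2, by Pdcd1 or Lag3, and by proliferation genes, in the library labelled cKO (red) and in that labelled WT (blue); the 5 sets together hold all gated CD8 T cells. Right, the share of exhausted cells with all UMIs and after thinning each cell to 4351 UMIs; bars are shares with exact 95% intervals, and the cKO bar of the exhausted set is higher in both panels, at 23.3% against 5.39% and at 16.6% against 5.45%.

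Many cells lay close to the limits of the rule. A single Havcr2 UMI placed 204 of 400 cKO cells (51%) and 26 of 40 WT cells (65%) in the set, while 104 cKO and 9 WT cells had 3 or more, up to 15 in cKO and 9 in WT. Just outside stood the 463 cKO and 124 WT cells with 0 Havcr2 UMIs and the 96 cKO and 17 WT cells with Havcr2 but neither Pdcd1 nor Lag3. Pdcd1 and Lag3 UMIs occurred together in 236 cKO cells (59%) and 18 WT cells (45%). Lag3 alone was found in 31.5% of cKO and 32.5% of WT cells, and Pdcd1 alone in 9.50% and 22.5%. The levels of the receptors that chose the cells were 232 CPM in cKO and 269.8 CPM in WT for Havcr2, 197.5 and 185 CPM for Pdcd1, and 478 and 333 CPM for Lag3. Clonal structure could not be described, because the gene counts held only 24 UMIs of T cell receptor β variable segments in cKO and 7 in WT.

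Compared with Havcr2-negative cells of the same library, exhausted cells had more RNA of some effector molecules and less of many progenitor and memory genes. In both libraries alike, 154 of 7396 genes (2.08%) exceeded 1.5-fold upwards and 89 (1.2%) downwards. These are sizes and not test results, and the groups were drawn by Havcr2 itself, so they describe the cells that the rule separates. Within single libraries the shares were 4.99% higher and 2.76% lower in cKO, and 16.4% higher and 17.2% lower in WT, whose cells are few. Without mixed droplets, 1.01% of genes were higher and 1.35% lower in both libraries.

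Chemokines and killing molecules led the higher side. Ccl3, which encodes the chemokine MIP-1α, reached 1251 CPM in exhausted and 394 CPM in Havcr2-negative cKO cells, a ratio of 3.17 (2.98 to 3.38). In WT it reached 887 CPM in exhausted and 322 CPM in Havcr2-negative cells, a ratio of 2.75 (2.30 to 3.29). Prf1, the pore-forming protein perforin, was 2.36-fold (2.17 to 2.56) higher in cKO, at 551 and 234 CPM, and 4.16-fold (3.19 to 5.44) higher in WT, at 510.0 and 123 CPM. Ifng, which encodes interferon-γ, was 1.96-fold (1.84 to 2.09) higher in cKO and 1.81-fold (1.47 to 2.22) higher in WT. Ccl4, the chemokine MIP-1β, was 1.85-fold higher in cKO and 2.36-fold higher in WT. The rest of the 12 largest differences comprised Rbpj, the DNA-binding partner of Notch, Csf1, a macrophage growth factor, Rgs16, a regulator of G protein signalling, Lyst, which controls lytic granule size, the sterol synthesis enzyme Cyp51, the survival gene Bcl2a1b, and Lrrk1 and Ehd4. Their ratios ran from 1.65 to 2.14 in cKO and from 1.63 to 2.83 in WT.

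The lower side was led by Tcf7, at 21.1 CPM in exhausted and 85.3 CPM in Havcr2-negative cKO cells, a ratio of 0.248 (0.190 to 0.320). In WT it stood at 25.9 and 159 CPM, a ratio of 0.163 (0.0643 to 0.346). S1pr1, the receptor by which T cells leave tissue, had ratios of 0.355 (0.277 to 0.452) in cKO and 0.304 (0.0946 to 0.759) in WT. Bcl2, a survival factor of memory cells, had ratios of 0.627 and 0.544, and Il7r, the receptor of the memory cytokine IL-7, 0.559 and 0.687. Emb, Slco3a1, Sesn3, Gimap6, Irf2bp2, Zbtb20, the gut-homing integrin chain Itgb7 and the heat shock gene Hspa1b completed this side. The Hspa1b ratio of 0.0224 in WT rested on a single UMI in the exhausted cells, and the WT interval of Zbtb20 reached 1.01.

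Read by list, 9 of 15 measured progenitor and memory genes lay 1.5-fold or more lower in both libraries and 0 higher. Of 14 cytotoxic effectors 4 were higher and 0 lower. The granzyme gene Gzmk was not among these, with ratios of 0.873 (0.768 to 0.9925) in cKO and 0.994 (0.323 to 2.61) in WT. Of 16 cytokines and chemokines 5 were higher and 1 lower, and of 13 inhibitory receptors outside the rule 4 were higher and 0 lower. Without mixed droplets 2 of 12 inhibitory receptors were higher. Cd200r1, an inhibitory receptor for CD200, was one of these 4 receptors, at 16.7 CPM in exhausted and 4.52 CPM in Havcr2-negative cKO cells. Of 14 exhaustion transcription factors 2 were higher, or 1 without mixed droplets, and none of 18 T cell receptor signalling genes, 21 oxidative phosphorylation genes or 18 glycolysis and hypoxia genes passed 1.5-fold in both libraries. None of 14 measured interferon-γ response genes and 21 type I interferon response genes passed it either. The interferon lists thus had medians near 0 in this contrast, at -0.04 in cKO and 0.13 in WT for type I and at -0.05 and -0.15 for interferon-γ (log2), whereas all genes had medians of 0.02 in cKO and 0.03 in WT.

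**Figure D2:**
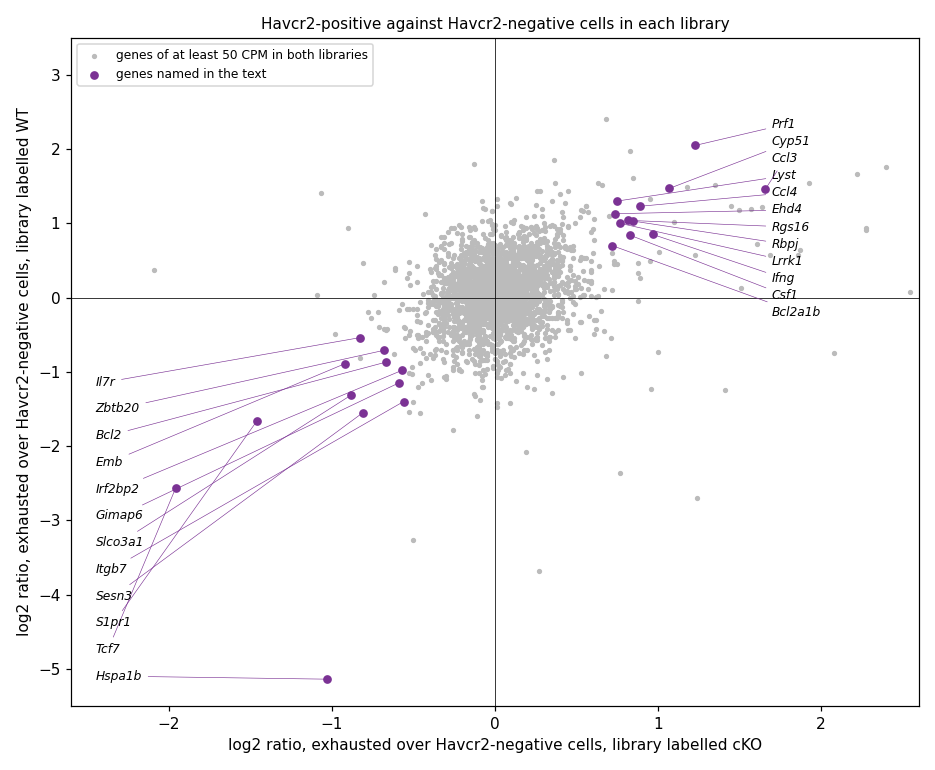
Each point is a gene of at least 50 CPM in a cell set of each library, with the log2 ratio of exhausted over Havcr2-negative cells in the library labelled cKO (x) and in that labelled WT (y); 2934 genes are drawn and 2 lie beyond the axes. Purple points are the 24 genes named by rule, among them Ccl3 and Prf1 at the upper right and Tcf7 and S1pr1 at the lower left.

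Effector, receptor and memory genes were followed across cells with 0, 1, 2 and 3 or more Havcr2 UMIs, which in cKO numbered 463, 204, 92 and 104 and had median depths of 6538, 7092, 7944 and 9716.5 UMIs. In cKO, Prf1 stood at 234, 329, 558 and 845 CPM and Ccl3 at 394, 753, 1256 and 1919 CPM in these classes. Gzmb, granzyme B, stood at 1273, 1536, 1856 and 2645 CPM, and Ifng at 447, 609, 641 and 1407 CPM. The activation receptor gene Tnfrsf9 (4-1BB) stood at 13.9, 19.6, 28.6 and 67.4 CPM. Each of these 5 genes was thus highest in the cells with most Havcr2.

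Other genes ran the opposite way in cKO. Gzma, granzyme A, stood at 1925, 1878, 1616 and 1002 CPM, and Cxcr3, a chemokine receptor of effector T cells, at 97.3, 79.6, 61.9 and 33.3 CPM. Il7r stood at 214, 158, 94.0 and 86.2 CPM. Tcf7 was already low with a single Havcr2 UMI, at 24.0 CPM against 85.3 CPM in cells with none, and stood at 17.8 and 19.6 CPM in the 2 upper classes. The WT classes of 124, 26, 5 and 9 cells were too small to give an order among positive cells, and the 5 cells with 2 Havcr2 UMIs held Gzma at 3321 CPM against 37.2 and 239 CPM in the neighbouring classes. Cells in which more Havcr2 was found were also deeper, and the part of depth in these trends was not tested.

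**Figure D3:**
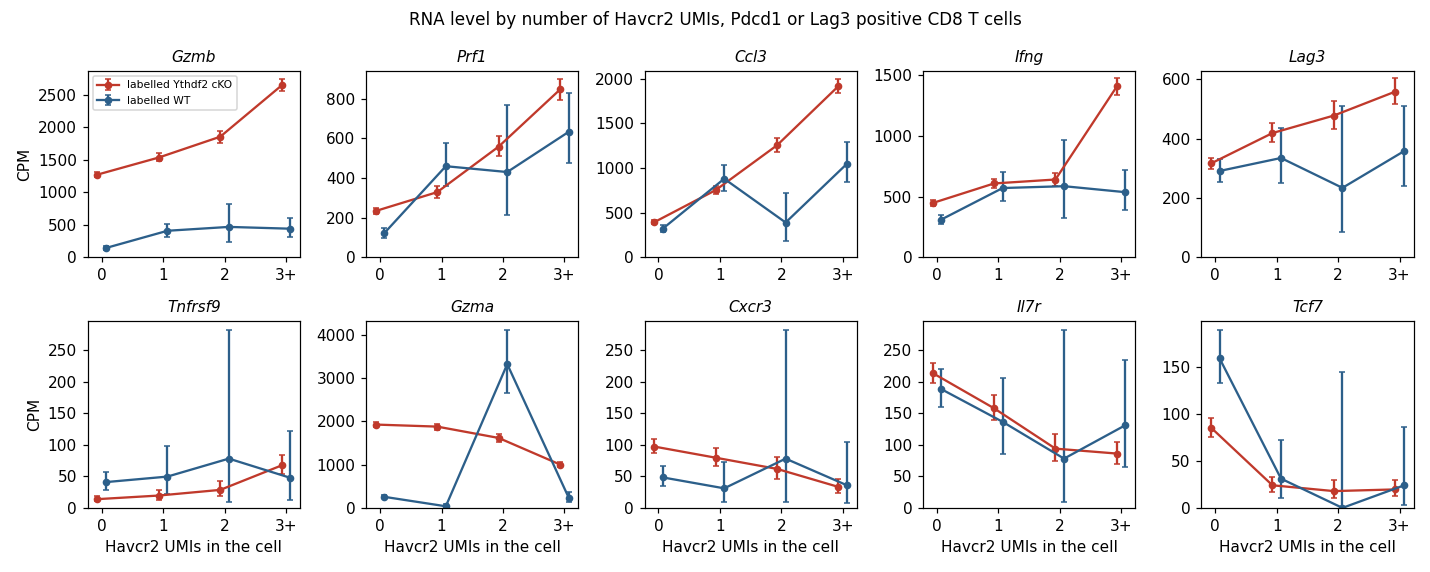
Summed level (CPM, linear axes from 0, exact 95% intervals) of 10 genes in Pdcd1- or Lag3-positive CD8 T cells with 0, 1, 2 and 3 or more Havcr2 UMIs, in the library labelled cKO (red; 463, 204, 92 and 104 cells) and in that labelled WT (blue; 124, 26, 5 and 9 cells). In cKO, Gzmb, Prf1, Ccl3, Ifng, Lag3 and Tnfrsf9 stand higher and Gzma, Cxcr3, Il7r and Tcf7 lower in cells with more Havcr2.

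Chemokines and granzymes were among the genes with the highest variance relative to their mean between exhausted cells. After thinning to 4351 UMIs (381 cKO and 32 WT cells, with 19 and 8 shallower cells left out), the variance of UMIs over cKO cells divided by their mean had a median of 1.09 over 4845 genes. The ratio was 53.7 for Ccl4, of which a single cell held 278 of its 4351 UMIs, 44.8 for the granzyme gene Gzmc, 40.5 for Spp1 (osteopontin), 35.1 for Ccl3, 31.7 for Xcl1, the chemokine that attracts cross-presenting dendritic cells, and 27.4 for Gzma. Gzmc was found in only 4.99% of thinned cKO cells, with up to 59 UMIs in a single cell, while Xcl1 was found in 32.3% of cKO and 50% of WT cells. Spp1 was found in 8.40% of thinned cKO and 31.25% of thinned WT cells. Cd74 and Cst3, which dendritic cells express strongly, had ratios of 36.1 and 28.4. H2-Aa, H2-Eb1 and H2-Ab1 had 23.1, 19.7 and 18.4. The part of mixed droplets in these genes and in Spp1 was not tested. Hspa1a and Hspa1b, inducible heat shock proteins, had ratios of 15.7 and 16.7. Abundant RNAs also ranked high, with 26.1 for Ccl5, 23.6 for Malat1 and 14.3 for Tmsb4x, found in 98.2%, 100% and 100% of thinned cKO cells. The part of a gene's level in this ratio was not tested.

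Gene levels in the exhausted cells were then set side by side between genotypes. In cKO, 1394 (17.0%) of 8194 genes of at least 10 CPM lay 1.5-fold or more above WT and 1365 (16.7%) as far below, with a median log2 ratio of -0.02. Among the 1663 genes of at least 100 CPM, where counting error is smaller, the shares were 7.46% and 5.11%. Leaving out mixed droplets gave 20.5% higher and 14.9% lower. Counts of list members are to be read against these shares.

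Gzmb, Gzma and Gzmk were higher in cKO exhausted cells, while perforin was close in both libraries. Gzmb stood at 1972 CPM (1927 to 2019) in cKO and 425 CPM (351 to 510) in WT cells, a ratio of 4.64 (3.86 to 5.63). At equal depth, 92.4% of 381 cKO cells and 59.4% of 32 WT cells held a Gzmb UMI, whereas B cells, which should lack it, held one in 15.8% of 38 cKO and 6.38% of 47 WT cells. Gzma stood at 1531 CPM in cKO, where 267 of 400 cells held it, and at 410.2 CPM in WT, where 9 of 40 did, a ratio of 3.73 (3.09 to 4.55). A single WT cell held 70 of the 111 Gzma UMIs of the WT set. At equal depth 57.7% of cKO and 15.6% of WT cells held Gzma, beside 26.3% of cKO and 10.6% of WT B cells, in which it stood at 415 and 108 CPM. Gzmk, granzyme K, typical of early exhausted cells, stood at 131 CPM (119 to 143) in cKO and 22.2 CPM (8.14 to 48.3) in WT cells, and in B cells at 3.43 and 0 CPM. Gzmb and Gzma were found together in 63.75% of cKO and 12.5% of WT cells, and 2.25% of cKO but 25% of WT cells held no UMI of Gzma, Gzmb or Gzmk. Prf1 stood at 551 CPM in cKO and 510.0 CPM in WT cells, a ratio of 1.08 (0.908 to 1.29).

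Across 18 measured cytotoxic effectors, 5 were at least 1.5-fold higher and 5 lower in cKO, with a median log2 ratio of 0.09. The lower ones were Gzmm, the cystatin gene Cst7, and Gzmd, Gzme and Gzmf, close paralogues between which counting could split reads. All 13 Gzmd and all 3 Gzme UMIs of the WT set lay in a single cell each. Of the 22 Gzmf UMIs of the WT set, 19 lay in a single cell, and the log2 ratio of Gzmf was -1.59 with and 0.96 without the mixed droplets. Without them, 6 effectors were higher and 2 lower. In Havcr2-negative cells, where 11.5% of all genes were higher and 13.9% lower in cKO, 9 of 15 effectors were higher and 1 lower, and Gzmb stood at 1273 CPM in cKO and 145 CPM in WT. In these cells Gzma had a log2 ratio of 2.91 and Gzmk one of 2.70, so the difference in these 3 granzymes was also present without Havcr2. Natural killer cells also held more Gzmb and Gzma in cKO (1350 CPM in cKO and 368 CPM in WT for Gzmb, 5900 and 3081 CPM for Gzma). Natural killer markers in the exhausted set summed to 1613 CPM in cKO and 447 CPM in WT. Gzma is 1 of these markers and made up most of both sums, so they largely restate its difference. Of the defining markers, Ncr1 was found in 11 of 400 cKO and 0 of 40 WT cells and Klrb1c in 18 and 0. The part of natural killer RNA in these differences was not tested.

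Among secreted signals, Ccl5, a chemokine of effector T cells, reached 11630 CPM in cKO and 5854 CPM in WT cells, a ratio of 1.99 (1.89 to 2.09). Ifng stood at 876 CPM in cKO and 562 CPM in WT, a ratio of 1.56 (1.33 to 1.85). Ccl4 and Ccl3 were closer, with ratios of 1.37 (1.26 to 1.48) and 1.41 (1.24 to 1.61), and Xcl1 had a ratio of 0.837 (0.724 to 0.972). Il21, a helper cytokine, had 0 UMIs in both. Of 16 cytokines and chemokines 3 were higher and 3 lower. Ccr2, the receptor for the monocyte attractant CCL2, stood at 462 CPM in cKO, in 340 of 400 cells, and at 177 CPM in WT, in 18 of 40 cells, a ratio of 2.604 (1.96 to 3.55). In myeloid cells, which share this receptor, Ccr2 stood at 1106 CPM in cKO and 649 CPM in WT. Itgb7 stood at 141.9 CPM in cKO and 37.0 CPM in WT, and Ly6c2, a glycoprotein of memory and effector T cells, at 1998 and 1098 CPM. In Havcr2-negative cells Ccr2 stood at 449.5 CPM in cKO and 99.2 CPM in WT, and Ccl5 at 11740 and 3675 CPM. Ifng stood there at 447 and 311 CPM and Ly6c2 at 2377 and 886 CPM, so these differences were also present without Havcr2. Of 15 homing and residency genes 5 were higher and 0 lower, with a median log2 ratio of 0.37, and 9 of 16 were higher in Havcr2-negative cells.

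**Figure D4:**
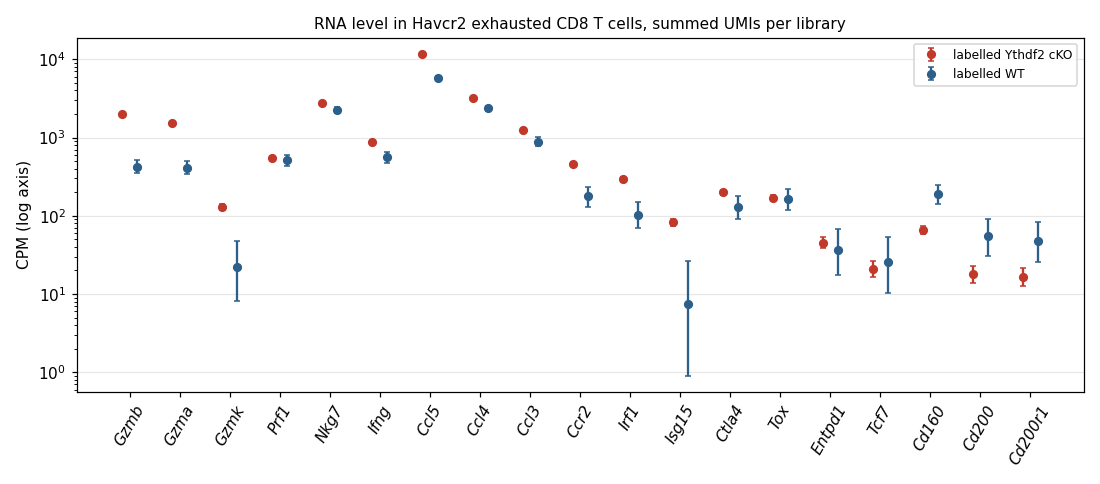
Summed level (CPM, log axis) of 19 genes in exhausted cells of the library labelled cKO (red, 400 cells) and of that labelled WT (blue, 40 cells), with exact 95% Poisson intervals. Gzmb, Gzma and Gzmk lie higher in cKO, Prf1, Tox and Tcf7 overlap, and Cd160, Cd200 and Cd200r1 lie lower in cKO.

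Interferon response genes were higher in cKO exhausted cells. Many genes that type I interferons induce carry an interferon-stimulated response element in their promoter. Of 17 measured interferon-γ response genes, 13 stood 1.5-fold or more above WT and 0 as far below, with a median log2 ratio of 1.36. Of 24 type I response genes, 16 were higher and 1 lower, with a median of 1.08, which was the same when the 2 genes with no WT UMI were set to their lower bounds. Without mixed droplets 21 of 22 type I genes and 13 of 16 interferon-γ genes were higher, with medians of 1.75 and 1.60. Among cells with at least 2 Havcr2 UMIs, 11 of 23 type I genes were higher and 5 lower in cKO, with a median of 0.31, and 11 of 17 interferon-γ genes were higher and 1 lower, with a median of 0.91. Of 16 genes of MHC class I and its antigen processing, 7 were higher and 0 lower, with a median of 0.47.

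Irf1, a transcription factor induced by interferon-γ, stood at 291 CPM in cKO and 103.5 CPM in WT cells, a ratio of 2.81 (1.94 to 4.26). Zbp1, a sensor of Z-form nucleic acids, stood at 186 CPM in cKO and 66.5 CPM in WT, and the immunity-related GTPase gene Irgm1 at 87.3 and 25.9 CPM. Isg15, a ubiquitin-like modifier, stood at 82.1 CPM (73.0 to 92.0) in cKO, in 113 of 400 cells, and at 7.39 CPM (0.895 to 26.7) in WT, in 2 of 40 cells. Oas3, which makes the second messenger of RNase L, stood at 58.1 CPM in cKO and 7.39 CPM in WT. Ifit1, which binds foreign RNA caps, stood at 101 CPM (90.6 to 112) in cKO and 22.2 CPM (8.14 to 48.3) in WT. Dhx58, an RNA sensor, and Ifit1bl1 were at least 2.68-fold and 3.14-fold higher against a floor of 3 UMIs over the WT set, in which they had none. Tap1, the peptide transporter of MHC class I, stood at 274 CPM in cKO and 151.5 CPM in WT.

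The promoters of the 3 interferon genes that the naming rule selected are shown because they carry the response element by which such genes are known. They are the 150 bases before the start site in RefSeq (GRCm38.p6), on chr4:156200819-156200968 (minus strand) for Isg15, chr5:120777660-120777809 (minus strand) for Oas3 and chr19:34640739-34640888 (plus strand) for Ifit1. Capitals mark the core of that element, the letters GAAA, any 2 bases and GAAA again, read on either strand, which occurs 3 times in overlap in Isg15, first 78 bases before the start, once in Oas3, 75 bases before it, and 2 times in Ifit1, first 104 bases before it.
Isg15: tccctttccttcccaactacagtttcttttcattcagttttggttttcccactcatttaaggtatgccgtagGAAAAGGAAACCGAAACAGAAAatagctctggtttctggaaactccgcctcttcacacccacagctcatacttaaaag
Oas3: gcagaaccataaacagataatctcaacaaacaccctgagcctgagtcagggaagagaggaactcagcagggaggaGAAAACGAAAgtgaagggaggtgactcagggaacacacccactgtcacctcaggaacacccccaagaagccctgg
Ifit1: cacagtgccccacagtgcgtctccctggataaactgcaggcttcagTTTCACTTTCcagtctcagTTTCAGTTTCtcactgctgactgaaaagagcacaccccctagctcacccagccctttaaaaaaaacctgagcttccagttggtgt

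This core was present in a promoter of 3.99% of all 27025 genes of the same table, searched over the full windows of 300 bases. Of the listed genes with a promoter there, 10 of 18 type I and 10 of 14 interferon-γ response genes held it, beside 4 of 14 MHC class I and 4 of 17 cytotoxic genes. A match is a description of the letters and does not show that a factor was bound in these cells.

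The interferon difference was also present in other cells. In Havcr2-negative CD8 T cells, 21 of 24 type I and 14 of 17 interferon-γ genes were higher in cKO, with medians of 0.99 and 1.22. Isg15 stood at 56.3 CPM in cKO and 13.6 CPM in WT Havcr2-negative cells, at 134 and 20.1 CPM in B cells, and at 326.5 and 72.7 CPM in myeloid cells. In the WT exhausted set, a single macrophage-rich droplet held 18 of 20 Ifit3, 22 of 24 Rsad2, 9 of 11 Ifit2 and 7 of 8 Mx1 UMIs. With that droplet in, Ifit3 had a log2 ratio of -0.12 and Rsad2 one of -0.18, and without mixed droplets 3.55 and 2.79.

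**Figure D5:**
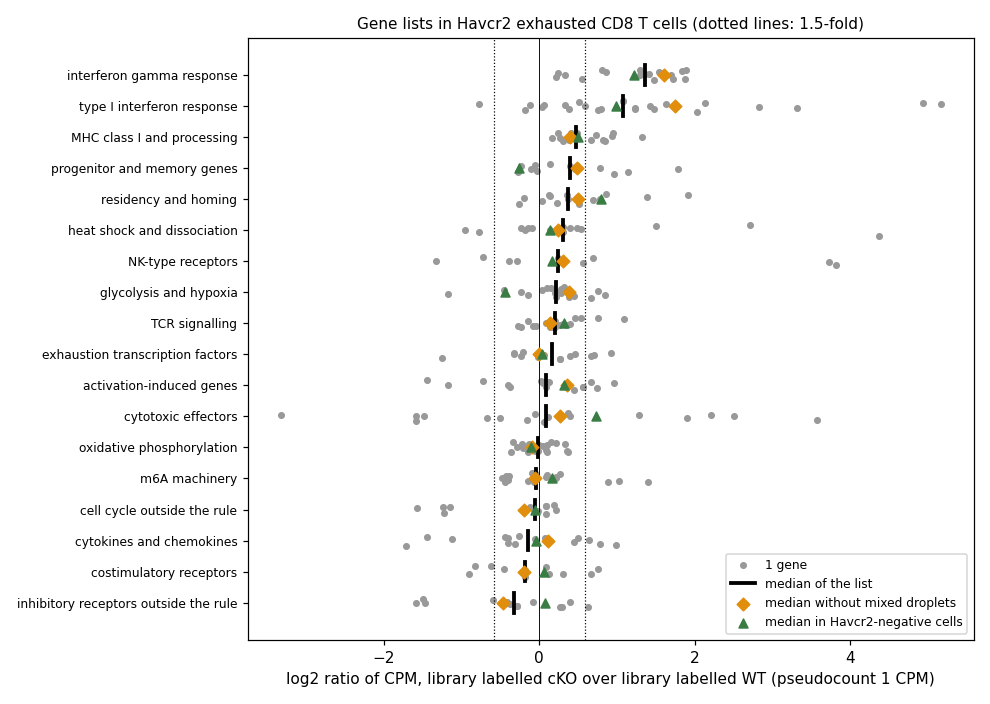
Log2 ratios of CPM (library labelled cKO over library labelled WT) in exhausted cells for the measured genes of 18 lists (grey points), with the list median (black bar), the median without mixed droplets (orange diamond) and the median in Havcr2-negative cells (green triangle). Dotted lines mark 1.5-fold; the interferon-γ and type I interferon lists have the highest medians, at 1.36 and 1.08, and that of inhibitory receptors is the lowest at -0.33.

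Inhibitory receptors and exhaustion transcription factors lay on both sides of the median of all genes. Of 14 inhibitory receptors outside the rule, 1 was at least 1.5-fold higher and 4 lower in cKO, with a median log2 ratio of -0.33. Cd160, a receptor that binds HVEM, stood at 65.9 CPM (57.8 to 74.9) in cKO and 188.5 CPM (140.3 to 248) in WT, a ratio of 0.3498 (0.258 to 0.483). Cd200, an immunoglobulin-like ligand, stood at 17.8 CPM in cKO and 55.4 CPM in WT and Cd200r1 at 16.7 and 48.0 CPM. Ctla4 was the higher one, with a ratio of 1.54 (1.10 to 2.23). In Havcr2-negative cells 2 of 13 inhibitory receptors were higher and 5 lower in cKO, with a median of 0.07. Cd160 stood there at 48.8 CPM in cKO and 116.5 CPM in WT and Cd200r1 at 4.52 and 14.9 CPM. Of 14 exhaustion transcription factors 3 were higher and 1 lower, with ratios of 1.05 (0.769 to 1.45) for Tox, 0.988 (0.817 to 1.20) for Nr4a2, an activation-induced nuclear receptor, and 0.793 (0.656 to 0.967) for Rbpj. The lower one was Maf, of whose 20 WT UMIs 6 lay outside mixed droplets, with log2 ratios of -1.25 with and -0.15 without them. Id2, a factor of effector differentiation, stood at 1326 CPM in cKO and 835 CPM in WT. Of 11 costimulatory receptors 2 were higher and 3 lower. Crtam, an adhesion receptor of activated T cells, stood at 53.1 CPM in cKO and 99.8 CPM in WT.

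Progenitor and memory genes were sparse in both sets, with 4 of 13 measured genes higher and 0 lower in cKO and a median of 0.39. Tcf7 had a ratio of 0.817 (0.378 to 2.10), and 10.0% of cKO and 7.5% of WT cells held a Tcf7 UMI, a share that at equal depth was 6.30% in cKO and 3.13% in WT cells, beside 5.26% and 6.38% in B cells, so that these shares are near background. Satb1, a chromatin organiser, had a ratio of 1.73 (1.13 to 2.78), and Ccr7, the lymph node homing receptor, stood at 79.0 CPM in cKO and 22.2 CPM in WT. Ccr7 came largely from few cells, since 26 of 400 cKO cells held it, and its log2 ratio was 1.79 with and 0.93 without mixed droplets. Of 18 T cell receptor signalling genes 2 were higher and 0 lower, among them the adaptor Lat with a ratio of 1.68 (1.26 to 2.30).

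Metabolic and housekeeping lists lay near the median of all genes. None of 21 oxidative phosphorylation genes passed 1.5-fold, with a median of -0.02. Of 18 glycolysis and hypoxia genes 3 were higher and 1 lower, with a median of 0.21. Hilpda, a hypoxia-induced lipid droplet protein, was the lower one at 85.9 CPM in cKO and 195.9 CPM in WT. Without mixed droplets 5 of the 18 were higher and 0 lower, with a median of 0.38. Hilpda thus did not pass 1.5-fold without them. Of 17 genes of the m6A machinery 3 were higher and 0 lower, with a median of -0.04, and the Ythdf2 paralogue Ythdf1 stood at 53.4 CPM in cKO and 25.9 CPM in WT, a ratio of 2.06 (0.983 to 5.204). Cell cycle genes outside the rule had 0 of 12 higher and 4 lower, led by the tubulin regulator Stmn1 at 24.2 CPM in cKO and 73.9 CPM in WT. The rule itself capped the UMIs of Mki67, Top2a, Birc5 and Cenpf per cell. Such a fixed limit is stricter for deeper cells, and cKO cells were the deeper ones. The part of this limit in the cell cycle list was not tested. Of 17 activation-induced genes 3 were higher and 3 lower, and of 15 heat shock and dissociation genes 3 and 2. Without mixed droplets these counts were 5 and 1 of 17, and 5 and 0 of 15. Jun and Fos, immediate early genes, had log2 ratios of -1.44 and -1.17, but 32 of 84 Jun and 31 of 92 Fos UMIs of the WT set lay in the macrophage-rich droplet, and the ratios were 1.16 and 0.36 without mixed droplets. Hspa1a stood at 102 CPM in cKO and 14.8 CPM in WT, and Hspa1b at 96.2 and 3.70 CPM. Few cells held them, 54 of 400 cKO and 4 of 40 WT cells for Hspa1a and 43 and 1 for Hspa1b. In Havcr2-negative cells their log2 ratios were -0.06 and 0.26, under 1.5-fold. Of 9 natural killer type receptors 3 were higher and 2 lower, or 3 and 1 without mixed droplets. Klre1, an NK receptor subunit, stood at 104 CPM in cKO and 262 CPM in WT.

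The remaining genes with the largest differences included markers of other cells and genes held by few cells. On the higher side, Itgax, the integrin CD11c, stood at 68.4 CPM in cKO, in 146 of 400 cells, and at 11.1 CPM in WT, in 3 of 40 cells. Rasgrp2, an activator of Rap1, stood at 52.9 CPM in cKO and 11.1 CPM in WT. Tbc1d4, a regulator of glucose transporter traffic, stood at 84.0 and 14.8 CPM, with log2 ratios of 2.43 with and 1.24 without mixed droplets. Fscn1, the actin bundler of mature dendritic cells, was held by 9 of 400 cKO cells at 62.3 CPM over the set and by 0 of 40 WT cells, at least 5.62-fold higher against 3 UMIs over the WT set. Mixed droplets held most of its UMIs, and without them 60 of 224 were left, at 18.5 CPM in cKO with a lower limit of the ratio of 1.04. On the lower side, C1qa and Apoe, made by macrophages, stood at 13.9 and 33.7 CPM in cKO and at 307 and 706 CPM in WT. Without mixed droplets their WT levels were 56.3 and 108 CPM, and their log2 ratios -1.98 and -2.19 in place of -4.37 and -4.35. Ccl6, Ccl7, Lgmn, Grn, Fabp5, Plin2 and Sdc4 are likewise abundant in macrophages, and their log2 ratios lay between -3.35 and -1.67 with and between -1.28 and -0.05 without mixed droplets. Such genes were also lower in cells that do not make them, with Ccl7 at 24.5 CPM in cKO and 101 CPM in WT natural killer cells and at 33.2 and 173 CPM in B cells, and the part of free RNA was not tested. Ccl1, a chemokine of activated T cells, had 18 of its 23 WT UMIs in a single cell. Chst2, a sulfotransferase, had a log2 ratio of -1.63, was found in 74 of 400 cKO and 15 of 40 WT cells, and stood at -1.74 without mixed droplets.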

How the data were processed

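The deposited values are UMI counts per gene and barcode, made by the authors from 10x 5′ libraries, 1 labelled cKO and 1 labelled WT. Cell Ranger 5.0.1 and Seurat 4.0.4 are named, with the build mm10, per the submitters' processing notes, and cellranger 5.0.0 per the file headers; the sources used here state no counting options. The libraries held 11398 barcodes with 121321782 UMIs in cKO and 14404 with 128952491 in WT. Barcodes with under 200 genes or over 10% mitochondrial UMIs were left out, leaving 9865 and 12179. The main values include possible doublets. As an alternative, the highest Scrublet scores at 0.8% per 1000 barcodes (scanpy 1.11.5) were removed, 779 in cKO and 1187 in WT.

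UMIs were summed per cell set and library and scaled to CPM with SciPy 1.17.1 and pandas 2.3.3. Log2 ratios of CPM used a pseudocount of 1 CPM and genes of at least 10 CPM in either set. A gene counted as higher or lower at 1.5-fold, a size and not a test. Intervals are exact (Poisson for CPM, conditional binomial for ratios, Clopper-Pearson for shares), at 95%, and cover counting error only. Fewer UMIs in WT make its levels the less certain ones. Where cells holding a UMI were counted at equal depth, each was drawn down to 4351 UMIs, the lower of the percentile 20 depths of the exhausted sets. Of 31053 genes in the files, 30934 have their identifier in GENCODE vM21. The functions were tested on simulated data.

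Named genes were, per side, the 12 of largest log2 ratio with at least 50 CPM and 100 UMIs and a ratio interval without 1 (cKO over WT), or the 12 on each side by the smaller of both libraries' ratios with at least 50 CPM in a cell set of each library (exhausted over Havcr2-negative). Genes of the rule, genes under 0.2 of their level in the myeloid, B or natural killer gates on the side where they are higher, mitochondrial, ribosomal protein, haemoglobin, antigen receptor, unnamed and sex-linked genes were excluded. Genes from the 18 lists were named as examples. The members and the lists were chosen with earlier results of these data known. Single genes beyond these rules and the limit of 3000 CPM for mixed droplets were chosen after their values were seen. The values of a further list gene are not reported here.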

Additional observations from a re-analysis of the deposited data

Results flagged for a closer look

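Several genes differed by at least 1.5-fold in opposite directions, with both counting intervals apart from 1, either between cKO and WT in the 2 cell sets or between exhausted and Havcr2-negative cells in the 2 libraries. With 1 library per genotype none of these differences was tested, and all values are log2 ratios.

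Between genotypes, Ccr7 had a ratio of 1.79 in exhausted cells (79.0 CPM in cKO and 22.2 CPM in WT) and of -2.16 in Havcr2-negative cells (65.4 and 295 CPM). Il2ra, the high-affinity IL-2 receptor chain, had ratios of 0.96 and -0.77 in these sets, the first being 0.57, under 1.5-fold, without mixed droplets. Tbc1d4 had ratios of 2.43 and -1.51, and Ccr7 and Tbc1d4 had 0.93 and 1.24 in exhausted cells without mixed droplets. Ccl1 had ratios of -1.71 in exhausted and 0.75 in Havcr2-negative cells. Gzmd and Gzmf had ratios of -3.32 and -1.59 in exhausted cells and 3.24 and 4.16 in Havcr2-negative cells, where neither had a WT UMI and the fitted value is no bound; without mixed droplets Gzmf had 0.96 in exhausted cells, and Gzmd had no WT UMI left. Fscn1 had a ratio of 5.98 in exhausted and -1.01 in Havcr2-negative cells, and since exhausted WT cells held none of its UMIs, its values against them are no bounds.

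Between cell sets, Tbc1d4 had a ratio of exhausted over Havcr2-negative cells of 1.24 in cKO and -2.70 in WT, the first being 0.33, under 1.5-fold, without mixed droplets. Fscn1 had ratios of 2.61 and -4.38. Bnip3, a hypoxia-induced mitochondrial protein, had ratios of 1.06 in cKO and -1.01 in WT, which without mixed droplets were 0.98 and -0.22. Ifit3 had ratios of -1.07 in cKO and 1.41 in WT, the second being -2.52 without mixed droplets. Gzmd had ratios of -0.95 in cKO and 5.62 in WT, the second against Havcr2-negative cells with 0 UMIs.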

How the results depend on the processing

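No paired analysis was possible because each genotype had 1 library, and no replicate could be left out. The share of exhausted cells was higher in cKO under each alternative that could change it. The log2 ratio of 2.11 among gated CD8 T cells was 1.61 after thinning before the gate and 3.76 in cells with 0 UMIs of Lyz2, C1qa, Cd79a and Apoe. The log2 ratio of 3.63 among all filtered barcodes was 3.0 and 5.27 under the same alternatives. That last restriction left 7 WT cells and gave 2952 genes higher and 2278 lower in cKO, against 1394 and 1365. With no filter on low values 4077 were higher and 2409 lower, among genes of at least 100 CPM 124 and 85, and with a pseudocount of 10 CPM 841 were lower.

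In the contrast of exhausted with Havcr2-negative cells, 154 genes were higher and 89 lower in both libraries. Thinning before the gate gave 91 and 179, a pseudocount of 10 CPM 77 and 25, no filter 399 and 432, and genes of at least 100 CPM 20 and 5. Equal weight per cell gave 96 higher, leaving out mixed droplets 73 higher, and at least 2 Havcr2 UMIs 175 lower.

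Ratios of named genes reversed in 10 cases (log2, cKO over WT). Gzmf became 0.97 without the highest Scrublet scores, 5.16 with at least 2 Havcr2 UMIs and 0.96 without mixed droplets. Ccl1 became 0.20 after thinning before the gate, 2.01 with at least 2 Havcr2 UMIs and 0.65 with at least 2 UMIs of Pdcd1 and Lag3. Ccl6, Lgmn, Grn and Sdc4 became 3.29, 3.83, 0.28 and 2.43 in cells with 0 UMIs of the 4 genes. The cause of these changes was not tested, beyond the smaller number of cells or genes that some settings leave. Of 270 list medians under alternatives, 260 stayed within the median counting interval of the members, and 10 moved outside it. The sign changed in 31 of the 270, all in lists whose median of -0.33 to 0.24 lay under 1.5-fold. Inhibitory receptors had -0.33, but 0.41 in cells with 0 UMIs of the 4 genes and 0.27 among genes of at least 100 CPM, and costimulatory receptors and cytokines had 0.60 and 0.80 in the first of these. The type I interferon median ranged from 0.31, with at least 2 Havcr2 UMIs, to 4.37 and that of interferon-γ from 0.83 to 4.65.

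With 40 WT cells, genes under about 100 CPM have wide intervals in WT. Nothing separates genotype from library, mouse, tumour or day, fewer cells from less RNA, or receptor protein from its RNA.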
